A study of Mus musculus with 24 samples.

Results

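The Polycomb core genes followed here are Ezh1, Ezh2, Eed, Suz12, Jarid2, Mtf2, Phf19, Rnf2, Ring1 and Pcgf6, taken by gene symbol from a table of polysome sequencing. All 10 symbols had a row, among 13504 genes in the table. The rule uses the symbols and no measured value, but the members were chosen with earlier results of these data known.

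Polycomb group proteins keep developmental genes silent by modifying histones. Polycomb repressive complex 2 (PRC2) methylates histone H3 at the H3K27 site through EZH2 or EZH1, which work only when bound to EED and SUZ12, and accessory subunits such as JARID2, MTF2 and PHF19 bring the complex to CpG islands. Polycomb repressive complex 1 (PRC1) adds ubiquitin to histone H2A through RNF2 (also called RING1B) or RING1, each paired with a PCGF protein. In mouse embryonic stem cells these complexes sit on the promoters of genes that are used later in development.

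The cells were mouse embryonic stem cells of the E14 line, and RACK1, which sits on the small subunit of the ribosome, carried an auxin-inducible degron (AID) in every group. The auxin indole-3-acetic acid (IAA) joins an AID-tagged protein to TIR1, a plant F-box protein, so that it is ubiquitinated and destroyed. The Rps26Tir1 line, called Ribo-Tweezer by the submitters, has TIR1 fused to RPS26, another protein of the small subunit, whereas TIR1 of the FreeTir1 control line floats free of ribosomes. Each line received IAA or DMSO for 12 h, and polyadenylated RNA of the free, low-translation and heavy-translation fractions was sequenced, in 24 libraries that form 12 groups of 2. The groups were therefore Rps26Tir1 cells with IAA, Rps26Tir1 cells with DMSO, FreeTir1 cells with IAA and FreeTir1 cells with DMSO, in each of 3 fractions. The labels do not say whether a line is a single clone or whether replicates are separate cultures, so p-values reflect no more than the spread among libraries, which may be technical.

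The authors compared IAA with DMSO within each line, and their table gives the result as a log fold change with a p-value and an adjusted p, beside an average expression that is the same for each line. Values of single libraries were not used here, so the depth is unknown and no level in a single fraction can be given. The log fold changes are read as log2, although the header states no base, and the treatment on top is not stated. Values are therefore called positive or negative. Nor is it stated which fractions entered a fold change or how they were combined. If the fractions were pooled, a positive value would mean more RNA with IAA under the usual order. A contrast between fractions would not carry that meaning. A change of mRNA amount and a change of ribosome loading cannot be told apart here, nor can fewer cells expressing a gene and less RNA per cell. All 10 pluripotency markers, such as Pou5f1 and Nanog, had a row, with average expression from 6.13 to 10.77 in the authors' deposited table. Of 10 fibroblast feeder markers 4 had a row, with average expression from 0.15 to 5.36. Of these 4, 3 were negative in Rps26Tir1 cells and 2 in FreeTir1 cells. Col1a1 passed in Rps26Tir1 cells, according to the authors' deposited table, at -1.42 with adjusted p = 0.0254, where 1.64% of all genes passed. It had the lowest average expression of the 4, 0.15, and a standard error of 0.329 in Rps26Tir1 cells. The test of its difference between the lines, described below, gave adjusted p = 0.446. Of 10 primitive endoderm markers none passed in either line, where 1.64% of all genes passed in Rps26Tir1 cells and 0.0% in FreeTir1 cells. Their average expression ran from -0.32 to 4.92, and only 3 of the 10 reached 3. Of the 10, 8 were negative in Rps26Tir1 cells and 5 in FreeTir1 cells. Of all 13504 genes, 6349 were negative in Rps26Tir1 cells and 6935 in FreeTir1 cells. What part either marker list had in the values of the Polycomb genes was not tested.

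None of the 10 Polycomb core genes differed between IAA and DMSO at adjusted p under 0.05 in either line. The same threshold was passed in the authors' deposited table by 222 genes, or 1.64%, in Rps26Tir1 cells and by 0 genes, or 0.0%, in FreeTir1 cells. At an unadjusted p under 0.05, 3 of the 10 stood out in Rps26Tir1 cells, namely Ring1, Jarid2 and Ezh1, where 16.3% of all genes did. Ring1 and Rnf2 were the 2 that did so in FreeTir1 cells, where the share of all genes was 6.69%. With 10 genes, these counts are too small to be read as different from the table as a whole. In each line 5 of the 10 were positive and 5 negative, with a median log2 fold change of -0.01 in Rps26Tir1 cells and -0.02 in FreeTir1 cells, against 0.01 and 0.00 for all genes. The plot of fold changes by line shows most members within 0.2 of 0 and Ring1 alone beyond 0.4.

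**Figure D1:**
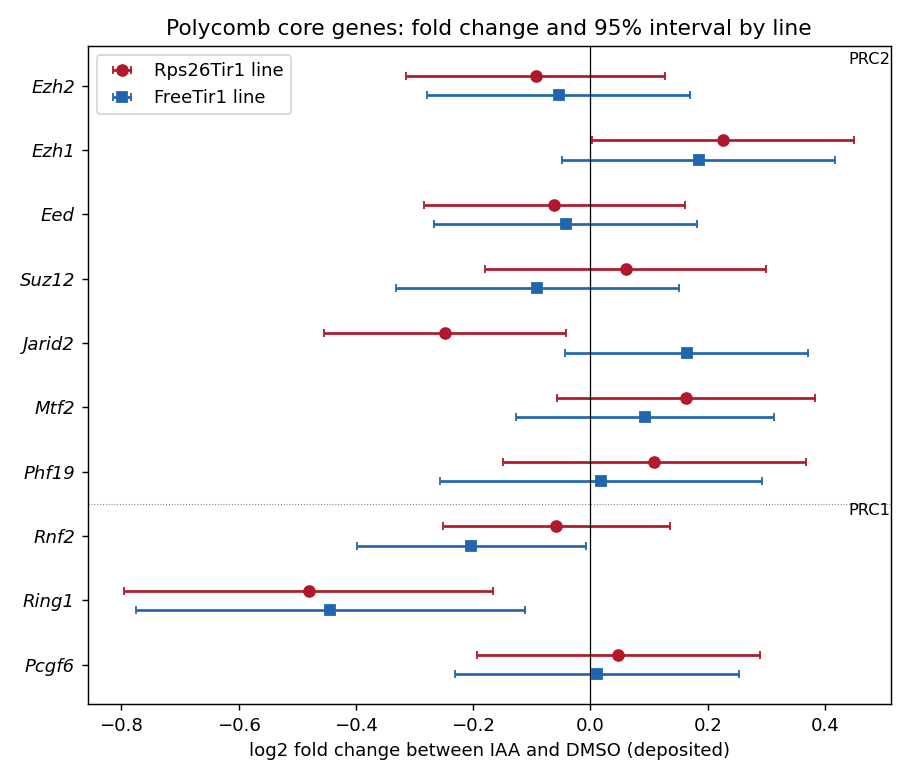
Log2 fold change between IAA and DMSO from the authors' deposited table for the 10 Polycomb core genes, with Rps26Tir1 as circles above FreeTir1 as squares; bars are 95% intervals built on standard errors derived from the p-values, not adjusted for the number of genes. Ring1 lies lowest in both lines, at -0.48 in Rps26Tir1 and -0.44 in FreeTir1, and the points of Jarid2 fall well apart on opposite sides of 0, at -0.25 in Rps26Tir1 and 0.16 in FreeTir1.

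Neither gene for the enzyme of PRC2 passed. Ezh2 is the main H3K27 methyltransferase of dividing cells (chromosome 6, 47530139 to 47595341, minus strand, GRCm38). It had a log2 fold change of -0.09 in Rps26Tir1 cells with adjusted p = 0.714, and -0.05 in FreeTir1 cells with adjusted p = 0.965, according to the authors' deposited table. Ezh1, its paralogue, is known for weaker catalysis and for a larger part in cells that have stopped dividing (chromosome 11, 101191115 to 101226463, minus strand). Ezh1 was positive in each line of the authors' deposited table, at 0.23 with adjusted p = 0.293 in Rps26Tir1 cells and 0.18 with adjusted p = 0.792 in FreeTir1 cells. These are a 1.17-fold and a 1.14-fold ratio, and the 95% interval of the Rps26Tir1 ratio, 1.001 to 1.37, lies just above equality before any adjustment. Intervals here rest on standard errors derived from the deposited p-values. The log2 fold change of Ezh2 was below that of Ezh1 in each line, with a difference, Ezh2 minus Ezh1, of -0.32 in Rps26Tir1 cells and -0.24 in FreeTir1 cells. That pair difference is a description, since the errors of different genes of a library cannot be combined from this table.

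The paralogues share little exact sequence, which bears on whether their reads can be told apart. The longest run common to the coding sequences of Ezh2 and Ezh1 has 17 bases, near the end of each, and it is shown in capitals with 9 bases on each side, from GENCODE M21 transcripts on GRCm38.
Ezh2: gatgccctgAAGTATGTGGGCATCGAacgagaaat
Ezh1: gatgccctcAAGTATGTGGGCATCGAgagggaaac
The run covers coding bases 2203 to 2219 of 2241 in Ezh2 and 2215 to 2231 of 2253 in Ezh1, counted from the A of the start codon. Of the 31-base stretches of the Ezh1 and Ezh2 transcripts, 0 occur in transcripts of any other gene.

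The scaffold genes of PRC2 lay within 0.1 of 0 in both lines. Eed encodes the subunit that binds methylated H3K27 and stimulates the enzyme (chromosome 7, 89954654 to 89980983, minus strand), and it stood at -0.06 in Rps26Tir1 cells and -0.04 in FreeTir1 cells, according to the authors' deposited table, where the adjusted p was 0.829 and 0.973. Suz12 holds the complex together (chromosome 11, 79993106 to 80034123, plus strand), and it stood at 0.06 in Rps26Tir1 cells and -0.09 in FreeTir1 cells, at adjusted p of 0.848 and 0.925, according to the authors' deposited table. Their intervals in Rps26Tir1 cells run from 0.821-fold to 1.12-fold for Eed and from 0.883-fold to 1.23-fold for Suz12. Before any adjustment, changes inside those limits, or none, are compatible with these values. The size of change needed to pass is a separate limit and is given below.

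Among the PRC2 genes of the core, Jarid2 was the one with the widest gap between the lines. It encodes a DNA-binding subunit that helps PRC2 reach its sites and activates the enzyme (chromosome 13, 44729474 to 44921643, plus strand). In the authors' deposited table it was negative in Rps26Tir1 cells, at -0.25 with adjusted p = 0.199, and positive in FreeTir1 cells, at 0.16 with adjusted p = 0.790. The ratios were 0.842-fold, with a 95% interval from 0.730 to 0.972, in Rps26Tir1 cells and 1.12-fold, with an interval from 0.971 to 1.29, in FreeTir1 cells. The transcript is the longest of the 10, with 5019 bases, of which 3705 are coding.

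Mtf2 and Phf19 encode Polycomb-like proteins, which bind unmethylated CpG DNA and define a form of PRC2 separate from the form with JARID2. Mtf2 (chromosome 5, 108065674 to 108109004, plus strand) stood at 0.16 in Rps26Tir1 cells and 0.09 in FreeTir1 cells, at adjusted p of 0.474 and 0.915, according to the authors' deposited table. Phf19 (chromosome 2, 34893757 to 34914026, minus strand) had 0.11 in Rps26Tir1 cells and 0.02 in FreeTir1 cells in the same authors' deposited table, where the adjusted p was 0.715 and 0.991. Each was positive in both lines and neither passed. Jarid2 therefore had the opposite sign to both Polycomb-like genes in Rps26Tir1 cells and the same sign in FreeTir1 cells. Exons of the Mtf2 transcript overlap the protein-coding gene Tmed5 on the opposite strand over 395 bases, so reads there may belong to either gene if strand was not used in counting. Opposite-strand noncoding genes overlap the Ezh2, Eed and Suz12 transcripts over 92, 261 and 178 bases.

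Ring1 had the largest fold change of the 10 in each line, and it was negative in both. It encodes the E3 ubiquitin ligase of PRC1 that is paralogous to RNF2 (chromosome 17, 34020792 to 34024680, minus strand). Its log2 fold change was -0.48 in Rps26Tir1 cells with adjusted p = 0.0994, and -0.44 in FreeTir1 cells with adjusted p = 0.497, according to the authors' deposited table. The ratios were 0.717-fold, with a 95% interval from 0.576 to 0.891, in Rps26Tir1 cells and 0.735-fold, with an interval from 0.584 to 0.925, in FreeTir1 cells. Of all genes 3.86% had a value this low or lower in Rps26Tir1 cells and 4.71% in FreeTir1 cells. Ring1 also had the lowest average expression of the 10 in the authors' deposited table, 2.502, and the largest standard errors, 0.154 in Rps26Tir1 cells and 0.162 in FreeTir1 cells.

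Rnf2, the ligase that carries most H2A ubiquitination in embryonic stem cells (chromosome 1, 151458004 to 151500955, minus strand), was closer to 0. It had -0.06 in Rps26Tir1 cells with adjusted p = 0.812 and -0.20 in FreeTir1 cells with adjusted p = 0.669, according to the authors' deposited table. In the FreeTir1 line the unadjusted p of Rnf2 was 0.0423 in the authors' deposited table, so its interval of 0.759-fold to 0.995-fold lies just under equality. Both ligase genes were thus negative in both lines, and the log2 fold change of Ring1 was the lower one in each: Rnf2 minus Ring1 was 0.42 in Rps26Tir1 cells and 0.24 in FreeTir1 cells. The longest run common to their coding sequences has 14 bases, in capitals here with 9 bases on each side.
Rnf2: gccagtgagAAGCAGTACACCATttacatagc
Ring1: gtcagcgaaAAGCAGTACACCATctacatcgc
It covers coding bases 865 to 878 of Rnf2 and 1075 to 1088 of Ring1. As with the EZH pair, 0 of the 31-base stretches of these transcripts occur in other genes. Among the other members, Jarid2 shared 9 of 4989 such stretches, or 0.18%, with 1434 other genes. Mtf2 shared 40 of 4030 with Gm49301 and Suz12 shared 34 of 4343 with Gm14752, whereas Eed, Pcgf6 and Phf19 shared 0.

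Pcgf6 encodes the PCGF protein of a variant PRC1 that holds MGA, E2F6 and L3MBTL2 and represses germline genes in mouse embryonic stem cells (chromosome 19, 47033617 to 47050906, minus strand). It stood at 0.05 in Rps26Tir1 cells and 0.01 in FreeTir1 cells, according to the authors' deposited table, where the adjusted p was 0.886 and 0.994. Among the PRC1 members it was the sole positive value in each line.

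A second question was whether the effect of treatment differed between the lines, since passing a threshold in a line does not show this. The difference was taken as Rps26Tir1 minus FreeTir1, and its test assumes that errors of the lines are independent. None of the 10 passed at adjusted p under 0.05, where 1 gene of the table did, or 0.00741%. That gene, Rnaset2b, is no Polycomb gene and is named after its value was seen. Of the 10, Jarid2 had the difference farthest from 0, -0.41 with a standard error of 0.143 and a 95% interval from -0.70 to -0.12. Its unadjusted p was 0.00731 and its adjusted p over all genes was 0.509, so the difference of Jarid2 does not survive the adjustment. It was the 1 member of 10 with an unadjusted p under 0.05, where 6.18% of all genes had one. Among genes at an average expression of 3 or more the share was 2.99%. A count of 1 is too small to be read as different from either share. In the plot of differences its interval alone stays clear of 0.

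**Figure D2:**
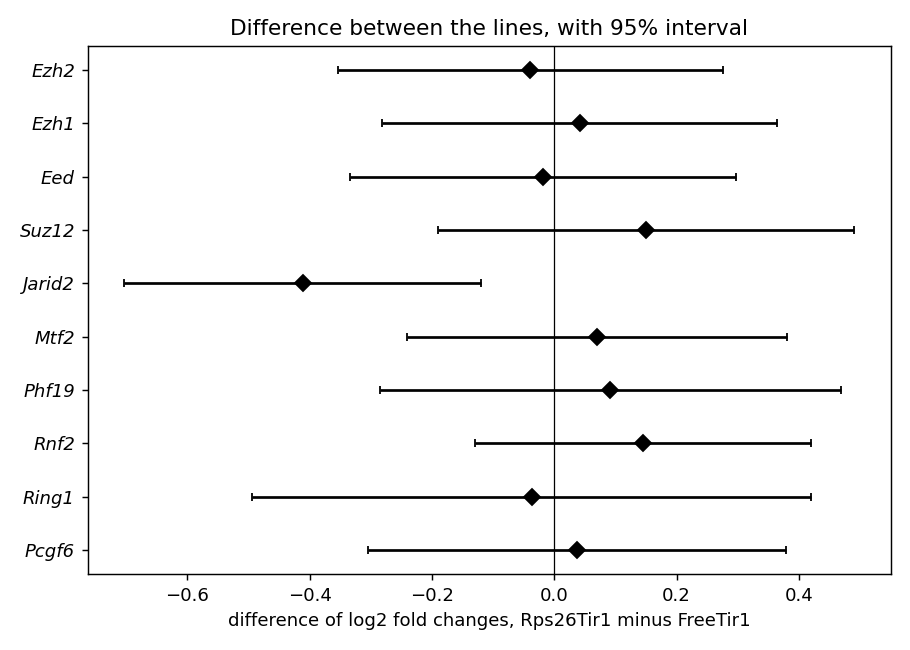
Difference of the log2 fold changes, Rps26Tir1 minus FreeTir1, for each Polycomb core gene, with 95% intervals from the combined standard errors and no adjustment for the number of genes. Jarid2 lies at -0.41; the other members lie between -0.04 and 0.15 with intervals that cross 0.

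For the other members the differences were small beside their errors. Suz12 differed by 0.15, with an interval from -0.19 to 0.49, and Rnf2 by 0.15, with an interval from -0.13 to 0.42. Ring1 differed by -0.04, with an interval from -0.49 to 0.42, so its negative values were close in the lines, but the interval is wide in either direction. Standard errors of the difference ran from 0.135 to 0.223 over the 10 genes. In all, 8 of the 10 had the same sign in both lines, as did 62.2% of all genes and 66.7% of those at an average expression of 3 or more. The exceptions among the 10 were Suz12 and Jarid2. The plot of the lines against each other places Jarid2 away from the diagonal and Ring1 near it.

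**Figure D3:**
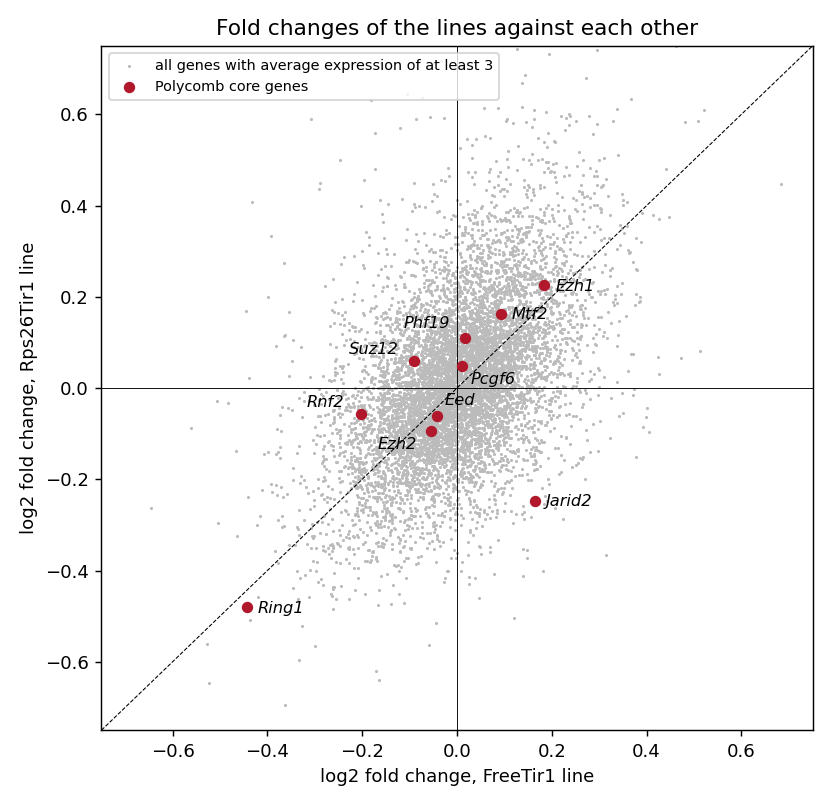
Log2 fold change in Rps26Tir1 cells (vertical) against the FreeTir1 line (horizontal) in the authors' deposited table, for the 8633 genes whose average expression was 3 or more in grey and the 10 Polycomb core genes in red; Ring1, at 2.502, is below that level and is shown too. The dashed line marks equal values, 13 grey genes lie outside the axes, and Jarid2 is far under the line at the lower right.

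How large a change could have been called sets the weight of these negative results, and it is given here for Rps26Tir1 cells only. In FreeTir1 cells 0 genes passed, so no such limit can be read off, and none was worked out for the difference between lines. In the Rps26Tir1 line the largest unadjusted p that passed was 0.000863 in the authors' deposited table. At each member's standard error, that p needs a log2 fold change of 0.35 for Rnf2, 0.37 for Jarid2, 0.40 for Mtf2, Ezh2 and Eed, 0.41 for Ezh1, 0.43 for Suz12, 0.44 for Pcgf6, 0.47 for Phf19 and 0.57 for Ring1, in either direction. Smaller fold changes of these genes in Rps26Tir1 cells would not have passed at this precision. The members' standard errors had a median of 0.109 in Rps26Tir1 cells, against 0.128 for all genes, and Ring1 alone was above that median of all genes.

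Since ribosomes begin at the start codon, the bases around it are shown for the 4 members with an unadjusted p under 0.05 in a line, with 9 bases before the start codon, the codon in capitals, and 12 bases after it, from the GENCODE M21 transcript that the table names.
Ring1: cccgtcaccATGacgacgccggcg
Rnf2: ggagccgaaATGtctcaggctgtg
Jarid2: gatctcagaATGagcaaggaaaga
Ezh1: ctgcattccATGaggaaaatggat
A purine (A or G) at the third base before the codon and a G right after it are the bases known to favour initiation in mammals. At the annotated start codon Ring1, Rnf2 and Jarid2 have the purine, Ezh1 does not, and none of the 4 has the G. The Ezh1 bases shown hold another ATG downstream in the same frame, with the purine before it and the G right after. Which ATG is used was not tested. Of the 10 members 7 had the purine and 4 had the G, where 86.1% and 52.8% of 13129 transcripts with an annotated ATG and a leader of at least 3 bases did. An ATG upstream of the start codon was present in 6 of the 10 transcripts and in 48.3% of all. These matches describe the annotated transcripts and do not show which transcript the cells used.

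The members share no length class. Transcript lengths ran from 2034 bases for Ring1 to 5019 for Jarid2 with a median of 3450.5, against 2881.5 for all genes, and coding lengths from 1011 bases for Rnf2 to 3705 for Jarid2. Ring1 has 60.7% GC, above 95.7% of genes or level with them, whereas Mtf2 has 38.2%, which is among the lowest 1.56%. Where average expression reached 3 or more, the median fold change tended to be higher for longer transcripts, at 0.08 in Rps26Tir1 cells and 0.03 in FreeTir1 cells in the length decile from 4838 to 6376 bases. Jarid2 belongs to that decile and lay under its median in Rps26Tir1 cells and over it in FreeTir1 cells. With the trend in expression and length taken out, Jarid2 stood at -0.31 with adjusted p = 0.133 in Rps26Tir1 cells, over a range of 0.133 to 0.229 for its alternatives. Ring1 stood at -0.46 with adjusted p = 0.135 after the same step, over a range of 0.0973 to 0.135.

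**Figure D4:**
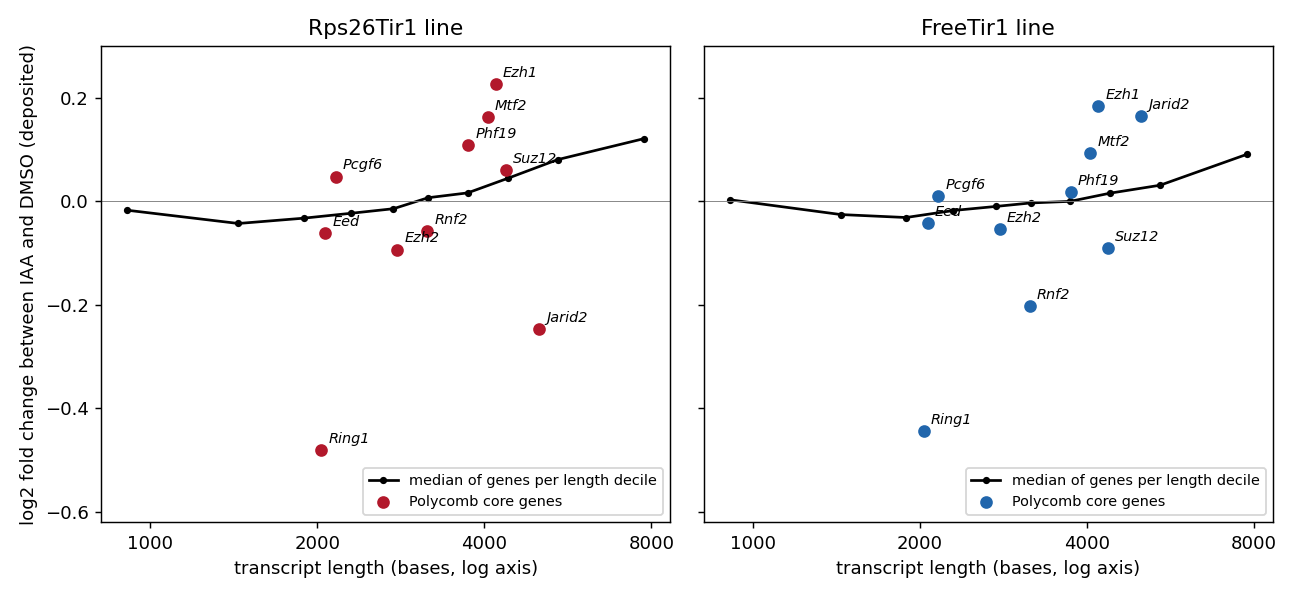
Log2 fold change in the authors' deposited table against transcript length (log axis) for the 10 Polycomb core genes, Rps26Tir1 on the left and FreeTir1 on the right; the black line joins the medians of genes with an average expression of 3 or more in 10 length classes. Ring1, with 2034 bases, lies far under the line in both panels, and Jarid2, with 5019 bases, lies under it only on the left. The average expression of Ring1, 2.502, is below the level of the genes behind the line.

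Other genes of the Polycomb system were followed as lists, and none of their members passed in either line or in the difference. Among 7 measured PRC2 subunits outside the core, 3 were positive and 4 negative in Rps26Tir1 cells with a median of 0.00, and 4 positive and 3 negative in FreeTir1 cells with a median of 0.06. Lcorl and Lcor, which give rise to PALI proteins of PRC2, had 0.30 each in Rps26Tir1 cells and -0.15 and 0.18 in FreeTir1 cells. These values are from the authors' deposited table, where the adjusted p was 0.180 and 0.225 in Rps26Tir1 cells. The transcripts named there have 1803 coding bases for Lcorl and 1302 for Lcor. Whether the values reflect the PALI forms or other forms of these genes was not tested. Between the lines Lcorl differed by 0.45 (standard error 0.175), so its size was above that of Jarid2 and its sign opposite; its unadjusted p was 0.0147 and its adjusted p over all genes 0.590. Rbbp4, a histone-binding subunit shared with other complexes, stood at -0.19 in Rps26Tir1 cells with adjusted p = 0.369 and -0.12 in FreeTir1 cells, in the authors' deposited table. At an unadjusted p under 0.05 there were 2 of the 7 in Rps26Tir1 cells, beside 16.3% of all genes, and 0 in FreeTir1 cells, beside 6.69%.

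More of the other PRC1 genes were positive than negative, by small amounts, except for canonical subunits in FreeTir1 cells, where the counts were equal. Of all 13504 genes, 7155 were positive in Rps26Tir1 cells and 6569 in FreeTir1 cells. Of 12 subunits of canonical PRC1, which reads H3K27 methylation through CBX proteins, 8 were positive in Rps26Tir1 cells with a median of 0.04 and 6 in FreeTir1 cells with a median of 0.00. Not 1 of these reached an unadjusted p under 0.05 in either line, where 16.3% of all genes did in Rps26Tir1 cells and 6.69% in FreeTir1 cells. The values with the smallest p were those of the SAM-domain genes Scml2, Scmh1 and Phc3, at 0.34, 0.25 and 0.23 in Rps26Tir1 cells and 0.12, -0.10 and 0.03 in FreeTir1 cells, according to the authors' deposited table. Of 15 subunits of variant PRC1, which does not need that mark, 11 were positive in Rps26Tir1 cells with a median of 0.08 and 13 in FreeTir1 cells with a median of 0.03. Pcgf1, the PCGF protein of the BCOR complex, was an exception at -0.39 in Rps26Tir1 cells with adjusted p = 0.170 and -0.12 in FreeTir1 cells in the authors' deposited table. Its partner Bcor, a corepressor, stood at 0.28 in Rps26Tir1 cells with adjusted p = 0.209 and 0.37 in FreeTir1 cells with adjusted p = 0.398, according to the authors' deposited table. With the trend in expression and transcript length removed, the Rps26Tir1 value of Bcor was 0.17 with adjusted p = 0.538, where the alternatives gave 0.216 to 0.538. Fbrs, a component of other variant complexes, had 0.38 in Rps26Tir1 cells with adjusted p = 0.206 and 0.02 in FreeTir1 cells in the authors' deposited table.

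Genes of PR-DUB, the complex that removes ubiquitin from H2A, and of the H3K27 demethylases formed a list of 12, most of which encode partners and not the enzymes that act on these marks. Of these 8 were positive in Rps26Tir1 cells with a median of 0.13 and 8 in FreeTir1 cells with a median of 0.07. For all 13504 genes the medians were 0.01 and 0.00, with 7155 positive in Rps26Tir1 cells and 6569 in FreeTir1 cells. An unadjusted p under 0.05 was reached by 5 of the 12 in Rps26Tir1 cells, where 16.3% of all genes reached it, and by 1 in FreeTir1 cells, where 6.69% did. The 3 genes for the enzymes themselves, named here after their values were seen, were near 0 in Rps26Tir1 cells. The deubiquitinase gene Bap1 had -0.01 in Rps26Tir1 cells and 0.08 in FreeTir1 cells in the authors' deposited table. The demethylase genes Kdm6a and Kdm6b had 0.07 and -0.04 in Rps26Tir1 cells, and 0.17 and 0.07 in FreeTir1 cells, also in the authors' deposited table. Asxl3 and Asxl2, which encode partners of the deubiquitinase BAP1, had 0.94 and 0.26 in Rps26Tir1 cells with adjusted p of 0.0631 and 0.258, and 0.39 and 0.20 in FreeTir1 cells, in the authors' deposited table. Foxk1, a forkhead factor bound by PR-DUB, had 0.34 in Rps26Tir1 cells with adjusted p = 0.129 and -0.07 in FreeTir1 cells, again in the authors' deposited table. Between the lines Foxk1 differed by 0.41, and the test of that difference gave an unadjusted p of 0.0209 and an adjusted p of 0.644. Removing the trend brought Foxk1 to 0.22 in Rps26Tir1 cells with adjusted p = 0.388, in a range over the alternatives of 0.134 to 0.388, and to -0.14 in FreeTir1 cells. The average expression of Asxl3 in the authors' deposited table was 0.26, a low value with a standard error of 0.270. The plot of the lists shows Asxl3 as the highest point of that group.

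**Figure D5:**
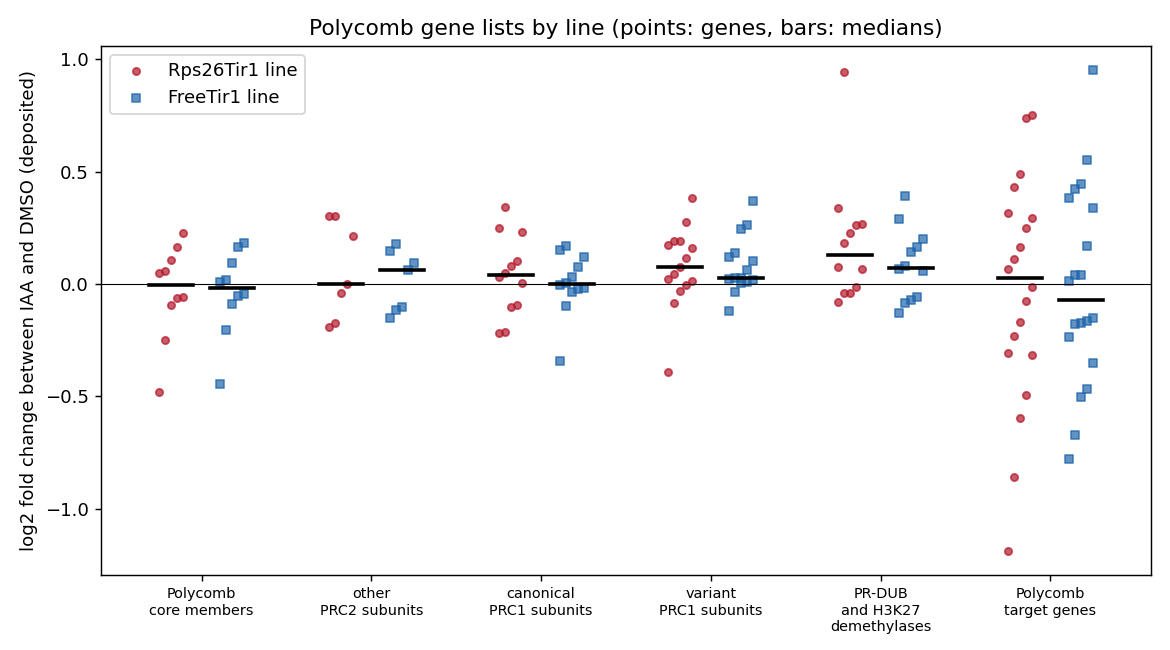
Log2 fold change between IAA and DMSO in the authors' deposited table for every measured gene of 6 Polycomb lists, Rps26Tir1 (circles) left of FreeTir1 (squares) in each; points are spread sideways for clarity and bars are medians. The lists other than the target genes have medians between -0.02 and 0.13, and the target genes spread widest, from -1.19 to 0.75 in Rps26Tir1 cells.

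Genes that Polycomb keeps silent in embryonic stem cells were mostly at low levels. Of 50 Hox and other developmental regulator genes, 20 had a row, and 19 of these were below an average expression of 3. In the Rps26Tir1 line 10 were positive and 10 negative with a median of 0.03, and in FreeTir1 cells 10 were positive and 10 negative with a median of -0.07. None passed, and 5 of 20 in Rps26Tir1 cells and 1 of 20 in FreeTir1 cells had an unadjusted p under 0.05, against 16.3% and 6.69% of all genes. Foxa2, an endoderm factor, had -1.19 in Rps26Tir1 cells with adjusted p = 0.150 and -0.17 in FreeTir1 cells, according to the authors' deposited table. Pax6, a neural and eye regulator, had 0.49 in Rps26Tir1 cells with adjusted p = 0.173 and 0.04 in FreeTir1 cells, according to the authors' deposited table. Msx1, a homeobox gene, stood at -0.86 in Rps26Tir1 cells with adjusted p = 0.190 and at -0.17 in FreeTir1 cells, according to the authors' deposited table. With the trend in expression and transcript length removed, the FreeTir1 values of Foxa2 and Msx1 turned slightly positive, to 0.0276 and 0.0233. With a median standard error of 0.3003 in Rps26Tir1 cells, changes of these weakly measured genes were detectable only when large. For the difference between lines, 4 of these 20 had an unadjusted p under 0.05, beside 6.18% of all genes. So did 2 of the 12 PR-DUB and demethylase genes and 1 of the 7 PRC2 subunits outside the core. None of the listed canonical or variant PRC1 subunits did. With lists this small, these counts were not read as different from the table as a whole.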

How the data were processed

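The file analysed was the authors' comparison table; per the file headers it gives, for each line, a deposited log fold change and average expression, read as log2, and a deposited p-value and adjusted p. The aligner, counter, build, normalization and statistical model: not given in the sources used here. The deposited adjusted p was computed over 15864 genes, more than the 13504 in the table. Gene and transcript identifiers were matched to GENCODE M21 (GRCm38), and all 13504 transcripts matched.

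Each deposited p-value was turned into a t-statistic with 29 degrees of freedom, and dividing the fold change by it gave a standard error. That number was picked from 8 to 60 because the standard errors of the lines then kept the steadiest ratio across genes. The difference between lines was tested two-sided on summed squared errors, with Benjamini-Hochberg adjustment over all genes of the table, in Python 3.11.15 with scipy 1.17.1. The procedure was tested on simulated data fitted with limma 3.58.1. Intervals cover 95% and are not adjusted.

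The members and lists were chosen with earlier results of these data known. Named were all members and, of each other Polycomb list, the genes called and the 3 with the smallest p in the Rps26Tir1 line. Alternatives were another set of genes adjusted together, centring, removal of trends, other degrees of freedom and correlated errors.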

Additional observations from a re-analysis of the deposited data

How the results depend on the processing

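No member was called in either line or in the difference under any alternative that could be run. Only centring and removal of the trend alter a fold change or a difference. The other alternatives change its standard error or adjusted p alone, so its sign could not turn under them. All 147 recomputed member values kept their sign, many of them for that reason. Ring1 has no value among genes at an average expression of 3 or more. The number of all genes called in the Rps26Tir1 line, 222, became 90 among genes at an average expression of 3 or more and 129 with the trend in expression and transcript length removed. For the difference between lines, the count of 1 became 0 among genes at an average expression of 3 or more, 0 with 20 and 3 with 60 degrees of freedom, 46 with an error correlation of 0.3 and 0 with a correlation of -0.3. Jarid2 had an adjusted p for the difference of 0.125 with the error correlation of 0.3 and 0.9998 with -0.3. With the trend removed, the FreeTir1 values of Foxa2 and Msx1 turned to 0.0276 and 0.0233, and the cause was not tested. The other 202 of 204 recomputed values of the named list genes kept their sign and their side of the threshold. Here too, sign and size could change only under centring or removal of the trend. Removing the trend moved several uncalled values by over 1.5 times, among them, in Rps26Tir1 cells, Bcor to 0.17, Foxk1 to 0.22, Eed to -0.02, Suz12 to 0.02 and Pcgf6 to 0.08. The deposited p-values within a line do not depend on the degrees of freedom, but the derived standard errors do: with 20 or 60 in place of 29, those of the members were 0.962 to 1.04 times as large. No paired analysis was possible because the table holds no value per library, and for the same reason no replicate was left out. The depth behind each gene is unknown.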
